A study of Mus musculus with 63 samples.

Results

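The genes described here lie around Synpo, the gene for the actin-associated protein synaptopodin, on mouse chromosome 18. They are the genes that start within 10 Mb of either end of Synpo (50593973 to 70660142 of chromosome 18, GRCm38) and that had a mean of at least 50 counts over 39 libraries of dissected hippocampal tissue. Of 55291 gene symbols counted, 341 started in this window, 7 of those were left out by name (Synpo itself, Camk2a, Csf1r, Rps14 and genes of the Snx, Rab, Kcn and Pcdh families), 245 were under the limit on the mean count and 89 remained. The genes were thus chosen by position and by their mean count. Since the mean was taken over both genotypes, a gene near the limit could pass or fall out through 1 of them. Gm4841 (mean 108 counts in Synpo-/- and 20.1 in Synpo+/+) and BC023105 (69.0 and 36.6) were over the limit in the Synpo-/- libraries alone, and F830016B08Rik (21.4 and 60.3) and Adamts19 (43.8 and 52.9), which were left out, in the Synpo+/+ libraries alone. Some of the counts given below were therefore also taken over 2 other sets, chosen after the values were seen. These were the 87 genes at the limit in both genotypes and the 91 genes at it in either. Counts at an unadjusted p, by side, without overlap, with the input's sign and of lesion calls are given over the 89 genes alone.

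The libraries came from entorhino-hippocampal slice cultures of wildtype mice (C57BL/6J, Synpo+/+) and of synaptopodin-deficient mice (B6.129-Synpotm1Mndl/Dllr, Synpo-/-) of either sex, prepared at postnatal day 3 to 5 and kept in vitro for at least 18 days. In lesioned cultures the entorhinal cortex had been cut off 3 days before harvest (ECL), which removes the perforant path input to the dentate gyrus and to the distal dendrites of CA3 pyramidal cells, and control cultures were not lesioned. The 39 regional libraries were each made from 1 dissected subfield of 1 culture. They comprised CA3 from Synpo-/- controls (6 libraries), Synpo-/- after ECL (6), Synpo+/+ controls (2) and Synpo+/+ after ECL (3), and the dentate gyrus (DG) from Synpo-/- controls (7), Synpo-/- after ECL (4), Synpo+/+ controls (4) and Synpo+/+ after ECL (7). A second set of 12 libraries was made from precleared lysate of 5 to 6 pooled whole cultures each, here called input: 5 of Synpo+/+ controls, 5 of Synpo+/+ after ECL and 2 of Synpo-/- cultures whose lesion state the labels do not give. Nothing in the labels ties a library to an animal, so the tests measure the spread between cultures or pools, and a preparation round that follows genotype cannot be told apart from genotype.

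A targeted allele is inherited together with the DNA beside it. In a line made in 129 embryonic stem cells and then crossed to C57BL/6J (for at least 10 rounds in the Synpo-/- strain), recombination replaces the donor chromosome from the outside in, so that genes next to the targeted locus keep donor alleles longest, and the reads of both genotypes were here mapped to the C57BL/6J reference. The neighbourhood of Synpo also holds a cluster of immunity-related GTPases, interferon-inducible proteins that act on the vacuoles of intracellular parasites and that are known to vary in sequence and copy number between mouse strains. Whether the Synpo-/- libraries carried donor alleles in the window was not tested.

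Regional libraries held 14055930 to 46043990 counts assigned to genes (median 22354491) and input libraries 19844632 to 47572131. In the input, depth followed genotype without overlap, at 42886994 to 47572131 in Synpo-/- and 19844632 to 29014397 in Synpo+/+. Prox1, a transcription factor of dentate granule cells, was at 120 to 217 CPM (counts scaled to the effective library size) in the DG libraries, except for DG Synpo+/+ ECL replicate 5 at 15.5 CPM, and at 12.7 to 44.0 CPM in CA3, so that this 1 library stood with CA3. The 4 CA3 pyramidal cell markers together were at 892 to 1008 CPM in the CA3 Synpo+/+ controls and at 289.5 to 407 CPM in the DG Synpo+/+ controls. Neither group holds DG Synpo+/+ ECL replicate 5, so these sums do not check that library. Synpo counts did not fall in the libraries labelled Synpo-/-. In the DG controls they were 426, 510.4, 525 and 546 normalized counts in Synpo+/+ and from 915 to 1546 (median 1135, n = 7) in Synpo-/-, and the average difference over both subfields and lesion states was 0.61 on the log2 scale (SE 0.074, edgeR adjusted p = 2.59e-06). In CA3 after ECL the genotypes overlapped, with 770, 784 and 813 in Synpo+/+ and values from 788 to 1012 (median 901, n = 6) in Synpo-/-. In the input they overlapped as well, with 659 and 747 in Synpo-/- and 502, 597, 651, 709 and 797 in the Synpo+/+ controls. Gene-level counts do not show which part of the locus was read, so genotype rests on the labels throughout.

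By biotype, 83 of the 89 genes were protein-coding, 2 were antisense RNAs and 4 were other non-coding genes or pseudogenes. By the gap between gene bodies, 16 lay within 1 Mb of Synpo (7 at lower and 9 at higher coordinates), 15 between 1 and 2.5 Mb, 19 between 2.5 and 5 Mb and 39 between 5 and 10 Mb, of which 30 were at higher coordinates. At the limit, the genes just inside were BC023105 (mean 55.7 counts), Impa2 (63.8) and Atp8b1 (66.1), and those just outside were Adamts19 (47.6) and A330084C13Rik (46.5). All 89 passed the filter on low counts in each comparison below.

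Genotype was first averaged over the 4 pairs of regional groups, in 1 fit of all 39 libraries, as Synpo-/- minus Synpo+/+. Of the 89 genes, 5 changed (edgeR quasi-likelihood test, Benjamini-Hochberg adjusted p under 0.05 over all genes tested), or 5.62%, where 0.19% of all 30550 genes tested and 0.372% of the 14246 genes with a mean of 50 counts or more did. Gm4841 and 1500015A07Rik were higher in Synpo-/-, and Gm4951, Afap1l1 and Rbm22 were lower. The count was 4 of the 87 genes at the limit in both genotypes (4.60%) and 6 of the 91 at it in either (6.59%). At an unadjusted p under 0.05 there were 19 of 89 genes (21.3%), beside 14.2% of genes with a mean of 50 or more. The median size of the log2 difference was 0.087 over the 89 genes and 0.079 over those 14246 genes.

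**Figure D1:**
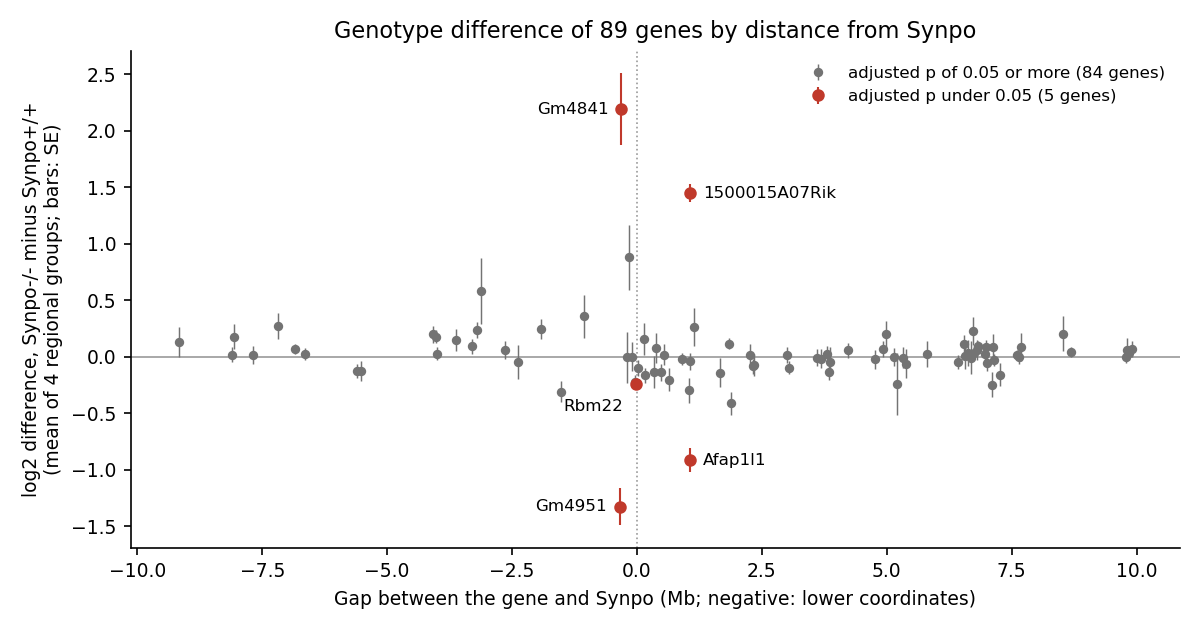
Average log2 difference Synpo-/- minus Synpo+/+ of each of the 89 genes (points, with SE) against the gap between its body and that of Synpo in Mb, negative at lower coordinates; coloured points passed the test. All 5 called genes lie between -0.346 and 1.07 Mb, limits set by the calls themselves, and the points beyond stay between -0.41 and 0.59.

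The same genes were then compared within each subfield and lesion state, in fits of the 2 groups concerned, so that these 4 comparisons share no library. In CA3 controls 1 of the 89 genes passed the test, where 0.00413% of 24203 genes tested (1 gene) did. In CA3 after ECL it was 1 of 89, beside 0.00891% of 22447 (2 genes). In DG controls it was 1 of 89, beside 0.0166% of 24143 (4 genes, Synpo among them). In the DG after ECL it was 3 of 89, beside 0.0166% of 24100 (4 genes), and 2 of the 87 genes at the limit in both genotypes (2.30%). In the input, with 2 Synpo-/- and 5 control Synpo+/+ libraries, 2 of 89 genes passed, beside 0.188% of 19169 (36 genes).

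1500015A07Rik, an antisense long non-coding RNA gene of unknown role (chromosome 18, 61726390 to 61735917, plus strand, 1.07 Mb from Synpo), was the gene that passed in all 4 regional comparisons. In CA3 controls its normalized counts were 235 and 254 in Synpo+/+ and from 685 to 1045 (median 751, n = 6) in Synpo-/- (log2 difference 1.65, SE 0.18, edgeR adjusted p = 0.00351). In CA3 after ECL they were 225, 231 and 246 in Synpo+/+ and from 469 to 863 (median 712, n = 6) in Synpo-/- (log2 difference 1.64, SE 0.17, edgeR adjusted p = 0.00272). Every Synpo-/- library was above every Synpo+/+ library in both states. In DG controls Synpo+/+ libraries held 229.7, 287, 303 and 348 and Synpo-/- libraries from 607 to 769.8 (median 706, n = 7) (log2 difference 1.22, SE 0.12, edgeR adjusted p = 0.000226). In the DG after ECL Synpo+/+ libraries ran from 185 to 296 (median 252, n = 7) and Synpo-/- libraries were at 543, 556, 596 and 631 (log2 difference 1.20, SE 0.13, edgeR adjusted p = 0.00172). Averaged over the 4, the log2 difference was 1.45 (SE 0.080, edgeR adjusted p = 1.24e-16). Of 14111 genes with a mean of 50 or more and a value in each comparison, it was the only one whose 23 Synpo-/- regional libraries did not overlap the 16 Synpo+/+ ones. The call was lost in CA3 controls without Synpo+/+ control replicate 1 (log2 1.73, edgeR adjusted p = 0.161) and in CA3 after ECL without Synpo+/+ ECL replicate 1 (1.62, adjusted p = 0.0626) or replicate 2 (1.63, adjusted p = 0.0701), and it held without each of the other libraries of the 4 comparisons.

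The pooled-culture input did not show this difference. There the 2 Synpo-/- libraries were at 263 and 295 normalized counts and the 5 Synpo+/+ controls at 255, 293, 294, 315 and 350.4, with overlapping ranges (log2 difference -0.12, SE 0.16, edgeR adjusted p = 0.832). Regional and input counts were normalized separately and differ in tissue (1 dissected subfield against a precleared lysate of pooled whole cultures) and in read length, and the gap between the 2 readouts was not tested.

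Afap1l1, which encodes an actin filament-associated adaptor protein and is transcribed from the other strand (chromosome 18, 61730261 to 61786702, minus strand), moved the other way. Its body shares 5657 of the 9528 bases of 1500015A07Rik, and 6.49% of the exonic bases of 1500015A07Rik lie in exons of another gene. The counting used no strand, so reads in the shared exons cannot be assigned to either gene with certainty. In CA3 after ECL, Afap1l1 was at 135, 158 and 172 normalized counts in Synpo+/+ and from 47.4 to 84.3 (median 58.2, n = 6) in Synpo-/- (log2 difference -1.26, SE 0.19, edgeR adjusted p = 0.0621). In the DG after ECL it ran from 132 to 182 (median 144, n = 7) in Synpo+/+ and was at 57.4, 73.6, 78.5 and 85.1 in Synpo-/- (log2 difference -1.06, SE 0.16, edgeR adjusted p = 0.0481). The groups were apart in both. DG controls were also apart, with 98.7, 116, 132 and 135 in Synpo+/+ and values from 62.1 to 91.0 (median 80.7, n = 7) in Synpo-/- (log2 difference -0.64, SE 0.16, edgeR adjusted p = 0.207). In CA3 controls the 2 Synpo+/+ libraries, 79.3 and 151, lay within and above the Synpo-/- range, which ran from 38.6 to 101 (median 77.4, n = 6) (log2 difference -0.76, SE 0.33, edgeR adjusted p = 0.279). Averaged over the 4 the log2 difference was -0.91 (SE 0.11, edgeR adjusted p = 8.37e-07). The input showed the same direction, with 114 and 121 in Synpo-/- and 213, 217, 244, 258 and 285 in the Synpo+/+ controls (log2 difference -1.06, SE 0.18, edgeR adjusted p = 0.0458). The single-comparison calls were near the threshold: that in the DG after ECL was lost in 10 of 11 fits that each left out 1 library (adjusted p up to 0.235, kept without Synpo+/+ ECL replicate 5), and that in the input in 6 of 7 (up to 0.471, kept without Synpo+/+ control replicate 1), whereas the averaged call held in 39 of 39.

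Grpel2, a mitochondrial co-chaperone gene whose start lies 65 bases from that of 1500015A07Rik, gave an average log2 difference of -0.041 (SE 0.075, edgeR adjusted p = 0.891). Its normalized counts in DG controls were 664, 787, 873 and 898 in Synpo+/+ and from 601 to 929 (median 842, n = 7) in Synpo-/-, which overlap.

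**Figure D2:**
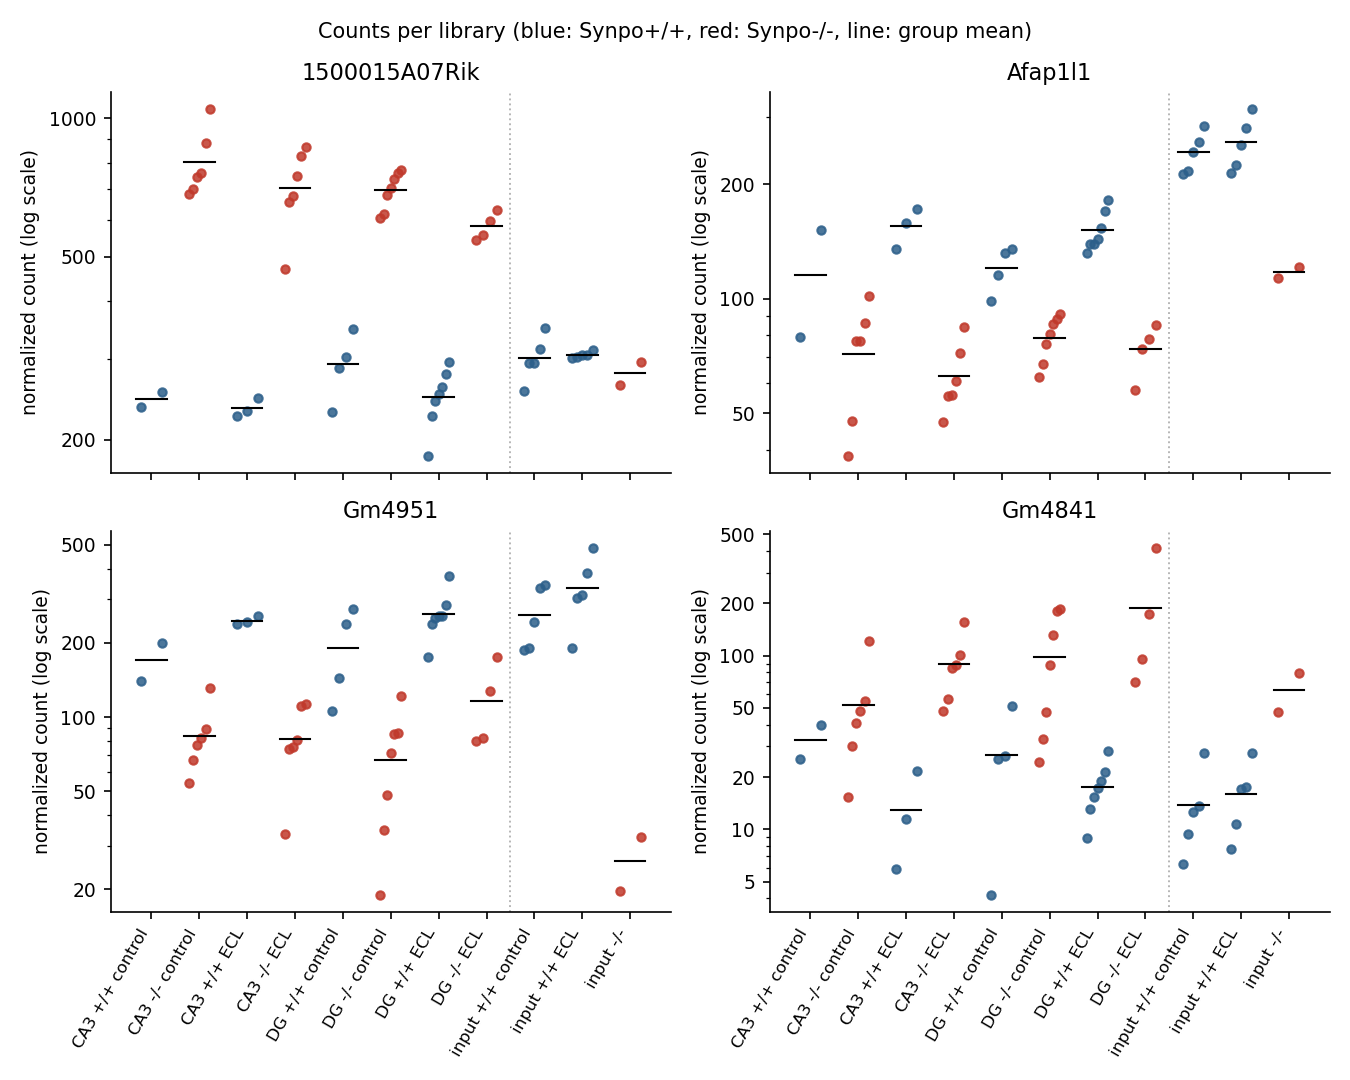
Normalized counts (log axis) of 1500015A07Rik, Afap1l1, Gm4951 and Gm4841 in each library of the 8 regional and 3 input groups, with 1 point per library (blue Synpo+/+, red Synpo-/-) and a line at the group mean. Regional Synpo-/- points of 1500015A07Rik, from 469 upward, all lie above the Synpo+/+ points, which reach 348, and in the input the groups overlap.

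At lower coordinates, between 0.201 and 0.346 Mb from Synpo, lie the immunity-related GTPase genes. Gm4951, given as Ifgga2 in RefSeq (chromosome 18, 60212080 to 60247820, plus strand), was lower in Synpo-/-. Its normalized counts in CA3 after ECL were 238, 244 and 256 in Synpo+/+ and from 33.5 to 113 (median 78.3, n = 6) in Synpo-/- (log2 difference -1.54, SE 0.25, edgeR adjusted p = 0.0887). In CA3 controls they were 140.4 and 199.7 against values from 53.9 to 131 (median 79.6, n = 6) (log2 difference -1.08, SE 0.29, edgeR adjusted p = 0.128), again with no overlap. In the DG after ECL Synpo+/+ libraries ran from 176 to 374 (median 256, n = 7) and Synpo-/- libraries were at 79.7, 82.2, 127 and 175 (log2 difference -1.20, SE 0.24, edgeR adjusted p = 0.325), which meet without crossing. In DG controls, 105, 144, 239 and 273 in Synpo+/+ overlapped the Synpo-/- range, which ran from 19.1 to 122 (median 71.5, n = 7) (log2 difference -1.52, SE 0.35, edgeR adjusted p = 0.207). No single regional comparison passed the test, and the average did (log2 -1.32, SE 0.17, edgeR adjusted p = 3.62e-06). The input showed the widest gap, with 19.8 and 32.5 in Synpo-/- and 188, 190.4, 244, 335 and 344 in the Synpo+/+ controls (log2 difference -3.31, SE 0.35, edgeR adjusted p = 0.00162). That call was lost without Synpo-/- input replicate 1 (log2 -3.01, adjusted p = 0.0585).

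Gm4841, given as Ifgga3 (chromosome 18, 60268305 to 60273272, minus strand), lies next to Gm4951 and was higher in Synpo-/-. In the DG after ECL its normalized counts ran from 8.90 to 28.2 (median 17.3, n = 7) in Synpo+/+ and were 70.7, 96.0, 175 and 415 in Synpo-/- (log2 difference 3.42, SE 0.41, edgeR adjusted p = 0.00332). In CA3 after ECL they were 5.89, 11.5 and 21.5 in Synpo+/+ and ran from 47.8 to 155 (median 86.4, n = 6) in Synpo-/- (log2 difference 2.77, SE 0.44, edgeR adjusted p = 0.0672). The Synpo-/- libraries thus spread over a wide range among themselves. In DG controls Synpo+/+ libraries were at 4.22, 25.4, 26.5 and 51.0 and Synpo-/- libraries ran from 24.5 to 184 (median 88.3, n = 7) (log2 difference 1.90, SE 0.58, edgeR adjusted p = 0.215), and in CA3 controls at 25.4 and 39.6 and from 15.4 to 122 (median 44.2, n = 6) (log2 difference 0.63, SE 0.59, edgeR adjusted p = 0.614). The average log2 difference was 2.19 (SE 0.32, edgeR adjusted p = 0.000102), and that in the input 2.19 (adjusted p = 0.0892), with 47.5 and 79.3 in Synpo-/- and 6.30, 9.42, 12.6, 13.7 and 27.4 in the Synpo+/+ controls.

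A further gene of the cluster, F830016B08Rik (Ifgga4), had a mean of 37.4 counts and so fell under the limit, below which it lay in Synpo-/- and not in Synpo+/+. It was the 1 gene of those under the limit in the window that passed the averaged test, at a log2 difference of -1.39 (SE 0.23, edgeR adjusted p = 0.000817), and was named after its values were seen. Iigp1, the best-studied GTPase of the family (Irga6), gave -0.0052 on average (SE 0.22, adjusted p = 0.997). In the input it was lower in Synpo-/-, at 127 and 205 normalized counts against 255, 281, 426, 428.5 and 570 in the Synpo+/+ controls. These groups did not overlap, as for 23 of the 89 genes in the input, and Iigp1 was not called there. BC023105, which lies nearer to Synpo and had the lowest mean of the 89, gave 0.88 on average (SE 0.29, adjusted p = 0.237). Members of 1 cluster therefore differed in opposite directions, with Gm4951 and F830016B08Rik lower, Gm4841 higher and Iigp1 without a call. Of the windows of 100 exonic bases of Gm4951 and Iigp1, none occurred in another annotated gene, and 0.33% of those of Gm4841 did. This compares annotated genes of the reference only, so it cannot show how reads from other alleles or copies were assigned.

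Besides BC023105 and Iigp1, the 10 genes nearest to Synpo, 5 on each side, were Rbm22, Dctn4, Smim3, Ndst1, Cd74, Tcof1, Slc6a7 and Pdgfrb. Rbm22, a component of the spliceosome 0.0212 Mb away, passed the averaged test at a small difference (log2 -0.24, SE 0.055, edgeR adjusted p = 0.0429). In CA3 after ECL its normalized counts were 1106, 1174 and 1234 in Synpo+/+ and ran from 910.1 to 1143 (median 935, n = 6) in Synpo-/-, and in DG controls they were 1022, 1024, 1153 and 1459 and from 867 to 1106 (median 1059, n = 7). The direction was the same in all 4 regional comparisons (-0.34, -0.22, -0.22 and -0.23 in CA3 control, CA3 ECL, DG control and DG ECL), with no call in any. The averaged call was lost in 23 of 39 fits that each left out 1 library.

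Dctn4, a subunit of the dynactin complex of retrograde transport, was lower by a like amount without passing the test (log2 -0.22, SE 0.056, edgeR adjusted p = 0.107), and in the input its difference had the other sign (0.39, SE 0.095, adjusted p = 0.183). Smim3, a small membrane protein gene, gave 0.0033 on average, and Ndst1, a heparan sulfate sulfotransferase whose end is 0.0244 Mb from Synpo, gave -0.095. Cd74, the invariant chain of MHC class II made by antigen-presenting cells such as microglia, gave 0.16 (SE 0.14, adjusted p = 0.739). Tcof1, a nucleolar factor of ribosomal RNA transcription, gave -0.16 (adjusted p = 0.383). Slc6a7, the brain proline transporter, gave -0.13, and Pdgfrb, a receptor of pericytes, 0.077. The 10 nearest genes thus include 1 call, while 2 of the 5 calls lie 1.07 Mb away.

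**Figure D3:**
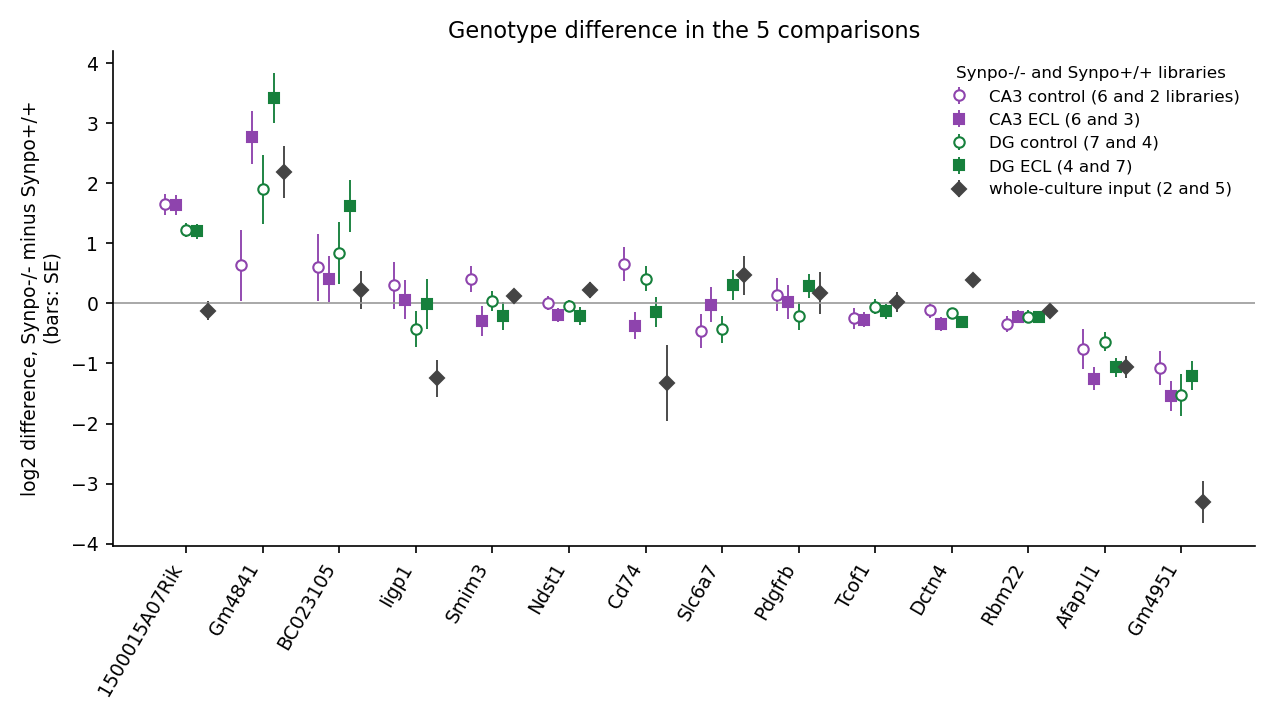
Log2 difference Synpo-/- minus Synpo+/+ with SE for the genes called in the averaged comparison and the genes nearest to Synpo, in CA3 and DG (open circles control, squares ECL) and in the input (diamonds). 1500015A07Rik sits between 1.20 and 1.65 in the regional comparisons and at -0.12 in the input, and Gm4951 is below 0 in all 5.

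The 5 calls of the averaged comparison spanned 20 of the 89 genes, from 0.346 Mb at lower to 1.07 Mb at higher coordinates. These limits come from the calls themselves, so no call could lie beyond them. Among the 69 genes beyond, log2 differences ran from -0.41 (Spink10, edgeR adjusted p = 0.0858, the smallest there) to 0.59 (Ctxn3), with a median size of 0.070. By distance, 3 of 16 genes within 1 Mb were called and the median size of the difference was 0.15. Of the genes at the limit in both genotypes it was 2 of 14 within 1 Mb, and of those at it in either 4 of 17. Between 1 and 2.5 Mb it was 2 of 15 genes and 0.24, between 2.5 and 5 Mb 0 of 19 and 0.070, and between 5 and 10 Mb 0 of 39 and 0.059. At an unadjusted p under 0.05 these bins held 6, 7, 3 and 3 genes. The 290 genes of chromosome 18 outside the window with a mean of 50 or more had 0 calls and a median size of 0.078. These bins were described only and the trend with distance was not tested.

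The calls differed by side. Within 1 Mb, all 3 (Gm4951, Gm4841 and Rbm22) were at lower coordinates, where 5 of 7 genes had an unadjusted p under 0.05, against 1 of 9 at higher coordinates. Among those 5 were Gm4841 and BC023105 (edgeR unadjusted p = 2.67e-08 and 0.00405), which were over the count limit in the Synpo-/- libraries alone. The filter thus added to the count at lower coordinates, and the counts by side were not taken again without these genes. Between 1 and 2.5 Mb both calls (1500015A07Rik and Afap1l1) were at higher coordinates, with 5 of 11 genes under 0.05 there and 2 of 4 at lower coordinates. The difference between sides was not tested.

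**Figure D4:**
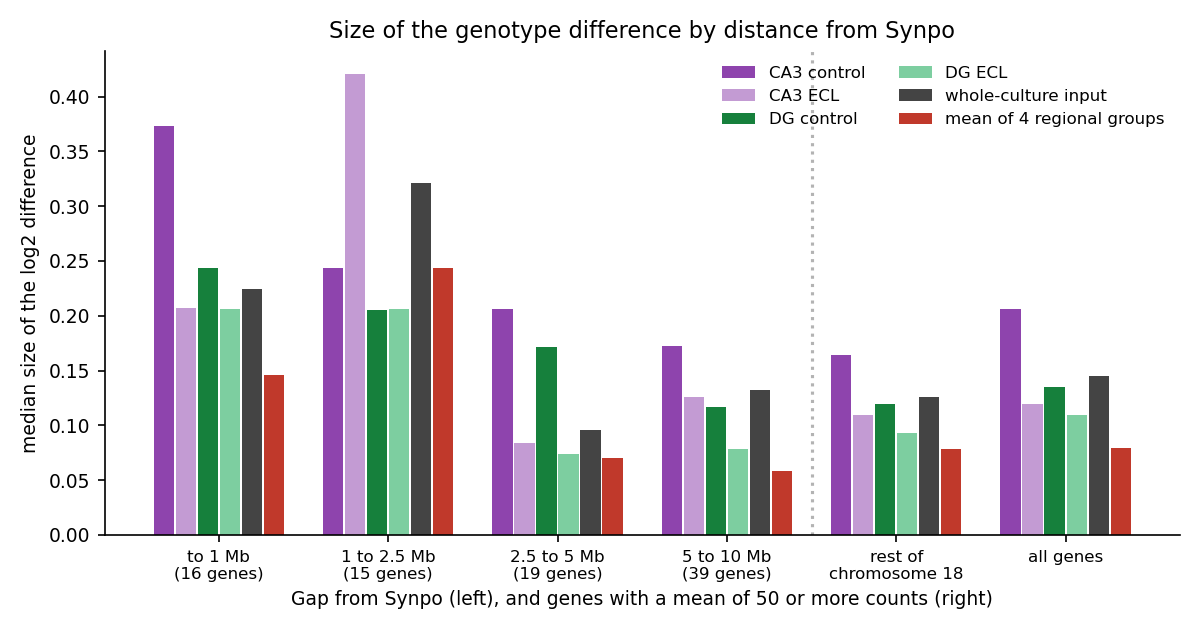
Median size of the log2 genotype difference in 4 bins of distance from Synpo, with the rest of chromosome 18 and all genes to the right of the dotted line, for the averaged comparison and for each of the 5 comparisons (bars, no error shown). In the averaged comparison the bins stand at 0.15, 0.24, 0.070 and 0.059, beside 0.079 for all genes with a mean of 50 counts or more.

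Direction across the 4 regional comparisons, which share no library, was the same for 22 of the 89 genes (24.7%, 10 higher and 12 lower in Synpo-/-), where 14.5% of the 14111 genes with a mean of 50 or more had this. With a log2 difference over 0.5 in size in each of the 4, there were 4 of 89 (4.49%), namely Gm4951, Gm4841, 1500015A07Rik and Afap1l1, beside 0.078% (11 genes) of the 14111. Of the 87 genes at the limit in both genotypes 3 had this (3.45%), Gm4841 no longer among them. Of the 91 at it in either, 5 did (5.49%). Without a limit on size, direction was the same for 20 of the 87 genes (23%) and 23 of the 91 (25.3%). The input took the same sign as well for 14 of 89 (15.7%, beside 7.65%). In the set of 22 were also Pcyox1l, with -0.75 in CA3 ECL and -1.02 in the input, Isoc1 with 0.24 on average and BC023105, none of which passed a test.

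Libraries of the 2 genotypes did not overlap for 17 of 89 genes in CA3 controls (19.1%, against 21.3% of genes with a mean of 50 or more), which with 2 Synpo+/+ libraries is near the background. In CA3 after ECL they did not for 10 (11.2%, against 5.17%), in DG controls for 4 (4.49%, against 2.16%) and in the DG after ECL for 5 (5.62%, against 0.772%). In the input it was 23 (25.8%, against 17.8%). Gm4951 and Afap1l1 were apart in 3 regional comparisons each (2.25%, beside 0.0992% of genes with a mean of 50 or more). 1500015A07Rik was apart in 4 (1.12%, beside 0.0213%). For Gm4951 these include CA3 controls, where 21.3% of genes were apart.

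Whether the genotype difference changed with lesion or subfield was tested as an interaction in the fit of 39 libraries. None of the 89 genes passed (edgeR) for genotype by lesion in the DG (background 0.00327%, smallest adjusted p = 0.59), genotype by lesion in CA3 (0.0262%, 0.11), genotype by subfield in controls (0%, 1) or genotype by subfield after ECL (0%, 1). At an unadjusted p under 0.05 they held 8 (8.99%), 21 (23.6%), 2 (2.25%) and 1 (1.12%) of the 89 genes, beside 7.30%, 24.5%, 4.13% and 2.89% of genes with a mean of 50 or more, and DESeq2 called 0 in each. The count for genotype by lesion in CA3 depended on DG Synpo+/+ ECL replicate 5, the library with CA3-like Prox1. Without it, edgeR called 1 of the 89 genes (1.12%), near the 0.972% of 30449 genes (296) called there. For 1500015A07Rik the log2 change of the genotype difference with lesion was -0.026 (SE 0.19) in the DG and -0.12 (SE 0.23) in CA3. For Afap1l1 it was -0.43 (SE 0.27) and -0.61 (SE 0.33), and for Gm4841 1.53 (SE 0.73) and 2.02 (SE 0.96).

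By function, the genes were grouped into 8 lists written from general knowledge of the locus, with the results of earlier work on these data known. Of the interferon-inducible GTPases and the invariant chain, 3 of 5 listed were among the 89 (Iigp1, Gm4951 and Cd74) and 1 passed the averaged test, Gm4951, which was lower. Gm4841 of the same cluster was not on the list and passed in the other direction. Of the RNA and nuclear genes, 8 of 9 were among the 89 and 1 passed, Rbm22, with Tcof1 at -0.16 and the nucleoporin gene Seh1l at 0.091. Of the cytoskeleton and membrane traffic genes, 12 of 16 were and 1 passed, Afap1l1, with Ablim3, an actin-binding protein gene, at 0.26 and Tubb6, a beta-tubulin gene, at 0.23. The other lists held no averaged call. Receptors, transporters and transmitter genes (8 of 11) ran from -0.24 for Grp, which encodes gastrin-releasing peptide, to 0.077 for Pdgfrb, with Htr4, a serotonin receptor gene, at -0.14. Transcription regulators (7 of 10) ran from -0.20 for Ppargc1b, a coactivator of mitochondrial genes, to 0.070, with Zfp608 at -0.12. Mitochondrial and metabolic enzymes (8 of 10) ran from -0.13 for Nars, the asparaginyl-tRNA synthetase, to 0.24 for Isoc1. Kinases, phosphatases and ubiquitin ligases (7 of 9) ran from -0.053 for Ptpn2, a tyrosine phosphatase, to 0.12 for Fbxo38, and matrix and glycan genes (7 of 9) from -0.095 for Ndst1 to 0.36 for Chsy3, a chondroitin synthase gene.

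The lesion was compared with control within each subfield and genotype, in the fit of 39 libraries. In the DG of Synpo+/+ cultures 12 of the 89 genes (13.5%) changed after ECL (8 higher and 4 lower), where 13.9% of all 30550 genes did (9.76% higher and 4.15% lower), and 23.9% of genes with a mean of 50 or more. In the DG of Synpo-/- cultures 5 of 89 (5.62%) changed (4 higher and 1 lower), where 5.65% of all genes did (4.32% higher and 1.34% lower), and 11% of those with a mean of 50 or more. The shares of the 89 were thus at the background or under it. In CA3, 0 of 89 passed in Synpo+/+ (edgeR, background 0.0229%) and 0 in Synpo-/- (background 0.0589%). At an unadjusted p under 0.05 there were 17 in Synpo+/+ (19.1%, beside 27.3% of genes with a mean of 50 or more) and 10 in Synpo-/- (11.2%, beside 8.52%). DESeq2 called 0 of 89 in both CA3 comparisons as well.

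Aldh7a1, an aldehyde dehydrogenase of lysine breakdown, rose in both genotypes. Its normalized counts in the DG were 724, 778, 800.0 and 942 in Synpo+/+ controls and ran from 1129 to 1569 (median 1319.5, n = 7) after ECL (log2 0.74, SE 0.10, edgeR adjusted p = 7.21e-06). In Synpo-/- they ran from 889.5 to 1173 (median 968, n = 7) in controls and were 1364, 1383, 1446 and 1544 after ECL (0.52, SE 0.100, adjusted p = 0.000534). Gramd3, a GRAM domain protein gene, rose by 1.01 (SE 0.14, adjusted p = 6.89e-06) in Synpo+/+, from 211, 213, 225 and 261 in controls to values from 399.9 to 623 (median 432, n = 7) after ECL. In Synpo-/- it rose by 0.56 (SE 0.13, adjusted p = 0.00702), a call lost in 1 of the 44 alternatives that refit the model (adjusted p = 0.0511).

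Ndst1 rose by 0.59 (adjusted p = 0.00196) in Synpo+/+ and by 0.41 (adjusted p = 0.0394) in Synpo-/-, a call lost in 14 of 44 alternatives (edgeR or DESeq2 adjusted p up to 0.244). Chmp1b, an ESCRT-III subunit gene, rose by 0.37 (adjusted p = 0.0498) and 0.43 (adjusted p = 0.0337), and 21% of its exonic windows of 100 bases also occur in other annotated genes. Its call was lost in 36 of 44 alternatives in Synpo+/+ (adjusted p up to 0.568) and in 15 of 44 in Synpo-/- (up to 0.202). Lox, the lysyl oxidase that cross-links collagen and elastin, was lower in both, at -0.65 (SE 0.19, adjusted p = 0.0229) and -0.67 (SE 0.20, adjusted p = 0.0352), calls lost in 3 and in 7 of 44 (adjusted p up to 0.145 and 0.216). These 5 genes were 5 of the 12 called in Synpo+/+ and 5 of the 5 called in Synpo-/-. The other 7 passed in Synpo+/+ alone, though no interaction was called: Phax, an adaptor of snRNA export, at 0.60 (adjusted p = 0.000215), Ppic, a cyclophilin gene, at 0.73 (0.0192), Mppe1 at 0.68 (0.0285), Cep120, a centriole gene, at 0.28 (0.0243), Malt1, a paracaspase of NF-kB signalling, at -0.54 (0.0149), the fibrillin gene Fbn2 at -0.79 (0.0334) and Slc6a7 at -0.78 (0.0348). Of these, Cep120 was lost in 11 of 44 alternatives, Mppe1 in 10, Fbn2 in 6, Slc6a7 in 5 and Ppic in 3 (adjusted p up to 0.172), and Phax and Malt1 in none.

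Of the 5 genes called between genotypes in the averaged comparison, none was called for lesion in the DG. For 1500015A07Rik the lesion difference in the DG was -0.23 (SE 0.13, edgeR adjusted p = 0.219) in Synpo+/+ and -0.26 (SE 0.13, adjusted p = 0.317) in Synpo-/-, and for Afap1l1 it was 0.33 and -0.097. Microglial markers moved with the lesion in the DG of both genotypes, and astrocyte markers are given for Synpo+/+ alone. The sum of 10 microglial markers (all found, none at 0) was 521 to 700.0 CPM in Synpo+/+ controls and 1317 to 1622 CPM after ECL, and 638 to 1330.0 and 1364 to 1822 CPM in Synpo-/-. The sum of 6 astrocyte markers was 3071 to 3825 and 5517 to 7325 CPM in Synpo+/+. In tissue pieces a change in cell number and one in RNA per cell cannot be told apart, and the part of glia in the lesion results was not tested. Without DG Synpo+/+ ECL replicate 5, the library with CA3-like Prox1, 8 genes were called in Synpo+/+ (8.99%, beside 8.84% of all genes), and Chmp1b, Fbn2, Mppe1 and Slc6a7 were not (adjusted p = 0.0825, 0.0748, 0.0708 and 0.0557), while 7 were called in Synpo-/- (7.87%, beside 6.64%). The Synpo+/+ count also fell to 5 without control replicate 2 (5.62%, beside 6.57% of all genes), to 6 without control replicate 4 (6.74%, beside 8.03%) and to 7 without ECL replicate 4 (7.87%, beside 8.66%). The Synpo-/- count fell to 2 (2.25%) without Synpo-/- ECL replicate 1 (3.25% of all genes) or 3 (3.84%), and to 3 (3.37%, beside 4.22% to 5.49% of all genes) without Synpo-/- ECL replicate 4, Synpo-/- control replicate 1 or 1 of 4 CA3 libraries of the same fit (Synpo-/- ECL replicates 4 and 5 and Synpo+/+ control replicates 1 and 2).

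**Figure D5:**
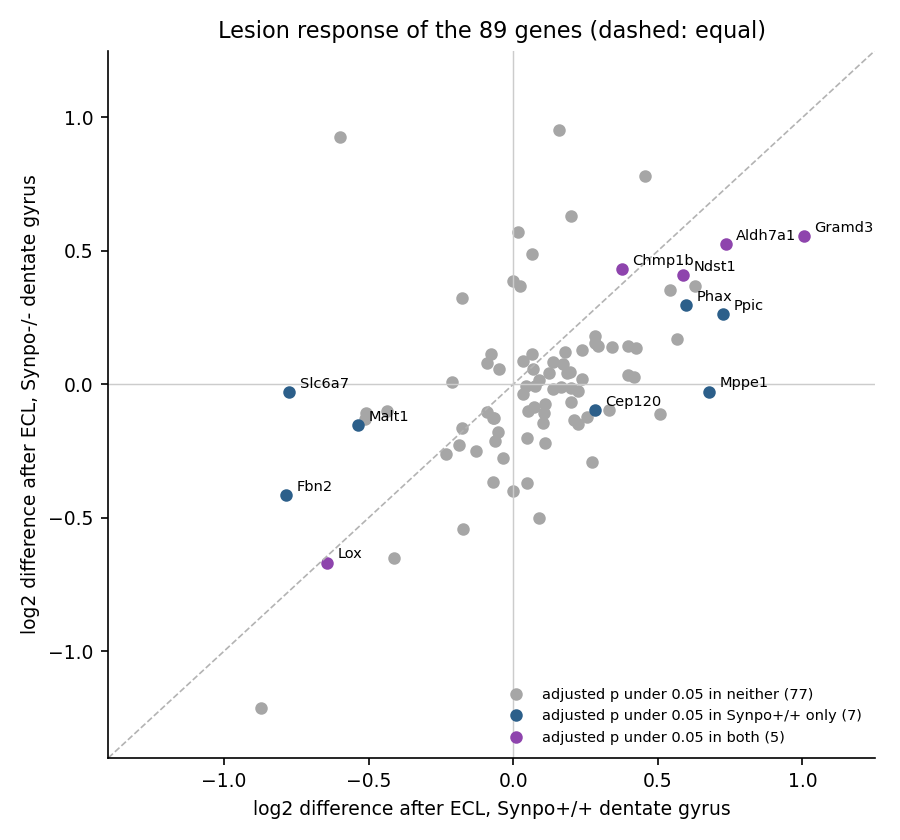
Log2 difference after ECL in the DG of Synpo-/- cultures (vertical) against that of Synpo+/+ cultures (horizontal) for the 89 genes, with the genes called in either genotype marked. Aldh7a1 (0.74 and 0.52) and Gramd3 (1.01 and 0.56) lie high in both, and Lox (-0.65 and -0.67) low in both.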

How the data were processed

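The authors trimmed reads with cutadapt 3.5, aligned them with STAR 2.7.8a to mm10 (GRCm38) and counted them per gene with featureCounts 2.0.1, without strand. The deposited values are raw counts per gene and library. Regional and input libraries were made with the same low-input kit, which amplifies by PCR, and read as 100-base and 150-base pairs, respectively. The 2 Synpo-/- inputs carry a separately worded protocol. Co-immunoprecipitation libraries were not used here.

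Groups came from the labels. Counts were tested with edgeR 4.0.16 (quasi-likelihood, TMM, filterByExpr, R 4.3.3) and adjusted over all genes tested by Benjamini-Hochberg, with a call at adjusted p under 0.05. The SE is the size of the log2 difference over the square root of F. Normalized counts are counts scaled by each effective library size over the geometric mean of those sizes in the set (39 regional or 12 input libraries), and CPM is used for marker sums. Positions come from the deposited annotation of GRCm38. The steps were tested on simulated counts. The alternatives were DESeq2 1.42.0, RLE size factors, no filter, a length trend removed (lowess, span 0.3), a replicate block, pooled fits, inferred sex, a mean normalized count over 300, other Synpo+/+ inputs and each library left out. The count limit read within each genotype was an alternative chosen after seeing the data.

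The genes and lists were chosen with earlier results of these data known. Genes named were those called in at least 2 regional comparisons, the 5 nearest to Synpo on each side, up to 3 calls per direction of each lesion or interaction comparison, those at the count limit and up to 4 of each function list. Gm4841, Rbm22's averaged call, F830016B08Rik and the remaining lesion calls were named after their values were seen. Replicate numbers were not taken to pair the libraries in the main fits (correlation of deviations across genotypes -0.262 to 0.224). The summed level of interferon-response genes and 1 gene under the count limit are not reported here.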

Additional observations from a re-analysis of the deposited data

Results flagged for a closer look

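Libraries that stood apart from the rest of their group were sought among the 14 genes called or nearest to Synpo, in 112 gene and group combinations of 4 to 7 libraries, by the gap to the nearest other library as a share of the group's range. This marked 11 combinations, where chance gives about 1 in 20. No explanation was tested.

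For Gm4841, CA3 Synpo-/- control replicate 3 stood at 122.08 normalized counts. For Rbm22, CA3 Synpo-/- ECL replicate 4 stood at 1142.9 and DG Synpo+/+ ECL replicate 3 at 1061.8. Dctn4 was at 2453.6 in DG Synpo-/- ECL replicate 1 and at 4106.2 in DG Synpo+/+ ECL replicate 5, the library whose Prox1 level lay with CA3. Smim3 was at 383.84 in CA3 Synpo-/- ECL replicate 6 and at 419.09 in DG Synpo+/+ control replicate 2. Ndst1 was at 1220.5 in DG Synpo-/- ECL replicate 1, Slc6a7 at 101.65 in DG Synpo-/- ECL replicate 4 and Pdgfrb at 120.06 in CA3 Synpo-/- control replicate 5. Cd74 was at 4188.4 in Synpo+/+ control input replicate 1.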

How the results depend on the processing

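No named call changed direction under any alternative run. The averaged calls of 1500015A07Rik, Afap1l1, Gm4951 and Gm4841 held under the 44 alternatives that refit the model, while the minimum of 300 leaves out Afap1l1, Gm4951 and Gm4841 by construction, and that of Rbm22 was lost in 25 of 44 (adjusted p up to 0.206). Counts of the 89 genes called that moved by over 1.5 times were as follows, and the cause was not tested except that the minimum of 300 can by construction only drop calls. With DESeq2, 3 genes (3.37%, beside 1.67% of all genes) were called in CA3 controls, 4 (4.49%, 0.0416%) in CA3 after ECL, 7 (7.87%, 0.556%) in the input and 12 (13.5%, 4.74%) for lesion in the DG of Synpo-/-. With no filter on low counts they were 5 (5.62%, 2.05%), 4 (4.49%, 0.0733%), 8 (8.99%, 1.49%) and 2 (2.25%, 2.02%), and 3 (3.37%, 0.113%) in DG controls. With the length trend removed they were 2 (2.25%, 0.0223%) in CA3 after ECL and 8 (8.99%, 5.80%) for lesion in the DG of Synpo-/-, which RLE size factors put at 3 (3.37%, 5.68%). With inferred sex as a covariate 3 (3.37%, 1.26%) were called in CA3 controls. Above a mean of 300 normalized counts 1 was called in the DG after ECL, 0 in the input, 2 in the average and 6 for lesion in the DG of Synpo+/+. The share of all genes called is not given for this minimum, so these counts cannot be set against a background. Against lesioned Synpo+/+ inputs 5 (5.62%, 1.37%) were called, and against all 10 Synpo+/+ inputs 4 (4.49%, 0.419%). RLE size factors moved the median of all genes by 0.113 in the genotype by lesion comparison of CA3 and by -0.109 for lesion in CA3 of Synpo+/+, where no gene of the 89 was called.

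Leaving out 1 library at a time gave 0 to 1 genes in CA3 controls, 0 to 2 in CA3 after ECL, 1 to 3 in DG controls, 2 to 4 in the DG after ECL, 0 to 4 in the input, 4 to 6 in the average, 0 to 1 for genotype by lesion in CA3, 5 to 13 for lesion in the DG of Synpo+/+ and 2 to 7 in Synpo-/-, and 0 to 0 in the other comparisons. The input count was 0 without Synpo-/- replicate 1 (0.0549% of all genes) and 4 without Synpo+/+ control replicate 1 (4.49%, beside 0.413%). The DG control count was 3 without Synpo-/- control replicate 4 (3.37%), near the 2.56% of all genes called there (606 genes). The DG ECL count was 4 without Synpo+/+ ECL replicate 5 (4.49%, beside 0.0375%). The averaged count was 6 without CA3 Synpo-/- control replicate 6 or ECL replicate 6 (6.74%, beside 0.273% and 0.535%). The lesion count of 13 in the DG of Synpo+/+ (14.6%) stood beside 15.8% to 17.5%.

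The replicate numbers are shared between groups, and the labels do not say whether they pair the libraries. Correlations of same-numbered libraries' deviations across genotypes ran from -0.262 to 0.224, which does not settle it. Pairing of DG with CA3 libraries was not tested. With the number as a replicate block, 11 genes (12.4%, beside 9.22% of all genes) were called in CA3 controls, 5 (5.62%, 1.35%) in CA3 after ECL and 10 (11.2%, 7.33%) in the input. With 2 CA3 Synpo+/+ controls and 2 Synpo-/- inputs, precision is limited by the number of libraries.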
